A study of Drosophila melanogaster with 8 samples.

Results

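Small nucleolar RNAs (snoRNAs) were examined in 8 RNA-seq libraries made from Dh44 neurons of the fruit fly brain. The 215 members are the genes whose FlyBase symbol begins with "snoRNA:", out of 11773 genes with a value in every library. All 8 libraries belong to one group, so the study holds no treated, mutant or control samples to set against each other: flies of genotype DH44-GAL4;UAS-mCD8gfp, aged 5 days and kept on normal food, in which the Dh44 driver marks cells with membrane-bound GFP. Marked cells were picked from the dissected brain by micropipette and pooled. The number of cells and of flies behind a library is not given in the sources used here, so the spread between libraries may be technical, biological or both, and no test between groups was possible.

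snoRNAs are short nuclear RNAs that guide chemical modification of ribosomal RNA. Those with C and D boxes bring the methyltransferase Fibrillarin to a chosen nucleotide, and those with H and ACA boxes bring the pseudouridine synthase dyskerin, called Nop60B in flies. In flies most are cut out of introns of host genes, many of which encode ribosomal proteins, while the Uhg genes are hosts whose spliced exons code for no protein. A symbol names the modification, the RNA and the target position: Me28S and Me18S are guides for methylation of the large and small ribosomal RNA, Psi28S and Psi18S are guides for pseudouridine, and Or marks orphans with no assigned target.

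By these names 81 members are C/D guides, 110 are H/ACA guides and 24 carry an individual name such as U3, U14 or U29. The symbols of these 24 do not state a box class, so they were kept apart from both classes. Any C/D or H/ACA members among them are therefore missing from the counts and shares given for those classes. The C/D guides are shorter, with a median annotated length of 79 bp, against 140 bp for the H/ACA guides. The label of the cells was borne out by its defining gene: Dh44, the diuretic hormone, lay between 26309 and 99818 FPKM. FPKM stands for the fragments mapped to a gene, corrected for its length and for the fragments mapped in the library. Of the glial markers repo had a median of 0.378 FPKM and Gs2 one of 56.7 FPKM (11.6 to 262). Genes of other cells were also present in all 8 libraries, among them the yolk protein gene Yp1 at 6630 FPKM or more and the rhodopsin gene ninaE at 338 FPKM or more. Their part in the snoRNA values was not tested.

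Most snoRNAs were not seen. Of the 215 members, 138 (64.2%) were listed at 0 in all 8 libraries, 36 were above 0 in 1 library, 21 in 2 or 3 libraries and 20 in 4 or more. A gene was called detected when it reached 1 FPKM in at least 4 of 8 libraries. By that rule 20 snoRNAs (9.30%) were detected, against 41.2% of all genes and 8.64% of the 81 other genes with less than 250 bp of exon. Being listed above 0 in at least 1 library was true of 77 snoRNAs (35.8%), of 69.9% of all genes and of 21.0% of the other short genes. The share of snoRNAs called detected was therefore close to that of other short genes, while the share listed above 0 was higher. Just inside the rule, with exactly 4 libraries, were Me5.8S-G74, Psi28S-1192b, Psi28S-1192c and U29:54Ed. Just outside it, with 3 libraries, were Me28S-G764, Psi18S-1086, Psi28S-2442b, Psi28S-3327a and Psi28S-3571. In pooled cells, fewer cells holding a snoRNA, less of it per cell and poor capture by the cDNA method cannot be told apart. Methods of this kind prime on poly(A) tails, which mature snoRNAs lack. A value of 0 therefore does not show that a snoRNA was absent from the cells.

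The FPKM of a snoRNA rests on very few fragments. Once the libraries were put on one scale, the values of a short gene were mostly whole multiples of a single step, and that step was taken as 1 fragment. The steps gave a whole number of fragments for 191 of the 195 snoRNA values above 0.001 FPKM, and 919 fragments in all. A step is a member's own value divided by a whole number, so at least 1 value of each member is whole by construction. Of the 128 values of the 25 members seen in 3 or more libraries, 127 were whole, with the step chosen to make the most of them whole. The 4 values left without a number were those of snoRNA:185 in library 7 and of Or-CD9a, Or-CD12 and snoRNA:660 in library 8. The median value stood on 3 fragments, 57 values stood on 1 fragment, 86 (45.0%) stood on 1 or 2, and 21 stood on 10 or more. Of the 20 detected members, 7 reached 10 recovered fragments in some library, and only 1 of these 7, Me28S-C3420a, is a C/D guide. The C/D guide Or-CD9a has no number in library 8, where it had 10802 FPKM. In library 7 it had 2164 FPKM on 7 fragments, so in library 8 it may have passed 10 as well.

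What 1 fragment is worth depends steeply on length. In library 2, 1 fragment came to a median of 634 FPKM for C/D guides (range 48.7 to 1752) and 47.4 FPKM for H/ACA guides (range 26.6 to 79.2). From Or-CD11c (67 bp, 1752 FPKM) to Psi28S-3342 (164 bp, 26.6 FPKM) the fall was steeper than division by annotated length would give. How the deposited FPKM were corrected for length is not given in the sources used here. The smallest snoRNA value above 0.001 FPKM was 27.8 FPKM, so 1 fragment was enough to pass the threshold of 1 FPKM in any library. A high FPKM of a C/D guide can therefore be a handful of fragments: the 15875 FPKM of the orphan Or-CD11c in library 8 were 5 fragments, with an exact Poisson 95% interval of 5154 to 37046 FPKM. These intervals cover counting error only, since amplified fragments without molecular identifiers are not independent molecules.

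**Figure D1:**
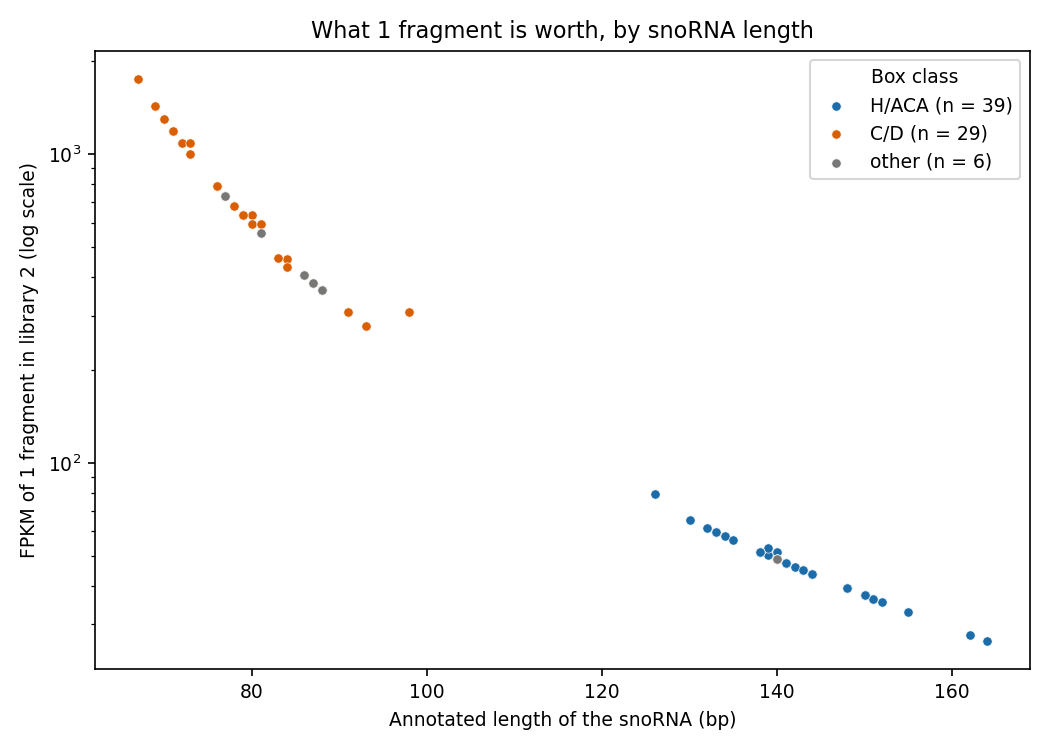
FPKM of 1 fragment in library 2 (log scale) against the annotated length of the snoRNA, 1 point for each of 74 members with a recovered step, coloured by box class. The C/D guides sit at the upper left, up to 1752 FPKM, and the H/ACA guides at the lower right, down to 26.6 FPKM. Each step was sought near a curve of step against length, so the points lie near that curve by construction.

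The order of the 2 box classes turned with the scale. C/D guides held 71.0% of the summed snoRNA FPKM over the 8 libraries, H/ACA guides 13.5% and the individually named members 15.5%. Of the recovered fragments, C/D guides held 24.8% (228), H/ACA guides 71.4% (656) and the named members 3.81% (35). Values without a recovered number add nothing to these fragments but stay in the FPKM shares. Among them are the C/D guides Or-CD9a and Or-CD12 in library 8, so the 28 C/D fragments recovered there are too few. Within libraries the H/ACA share had a median of 13.0% of FPKM (range 6.44 to 28.0) and 68.6% of fragments (range 59.6 to 84.4). Counted as fragments per 100 bp of annotated length, the H/ACA share was 55.9% (range 45.5 to 75.7). FPKM put H/ACA guides below C/D guides in every library and recovered fragments put them above in every library. Of the 41621 FPKM summed over the named members, 22610 FPKM were 1 value, that of snoRNA:185 in library 7, whose fragments could not be recovered.

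**Figure D2:**
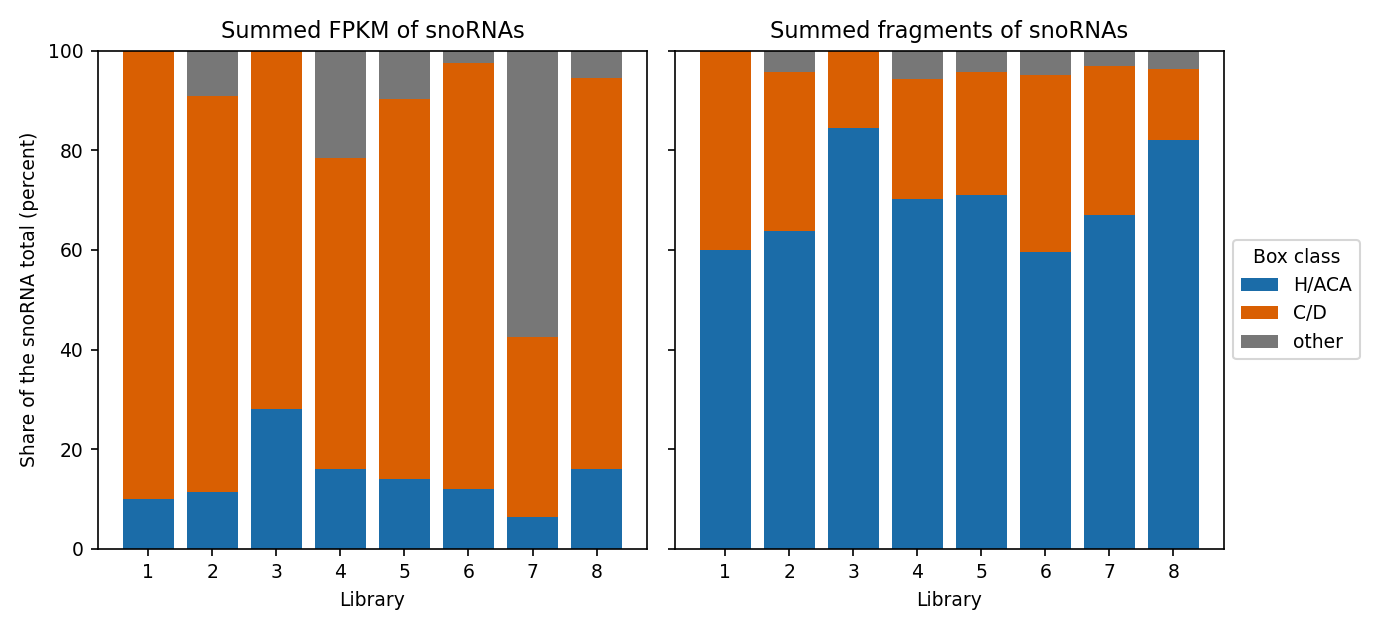
Share of the snoRNA total in each library (percent, stacked bars) held by H/ACA, C/D and individually named members. Summed FPKM is on the left and summed recovered fragments are on the right. H/ACA guides hold 6.44 to 28.0% of FPKM and 59.6 to 84.4% of fragments, and the large grey bar of library 7 is snoRNA:185.

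Both snoRNAs above 0 in every library were pseudouridine guides for the small ribosomal RNA. Psi18S-531 (FBgn0083027, X:763083-763234 on the minus strand of BDGP6, 152 bp, in an intron of RpL22) was above 0 in all 8 libraries. Its fragments in libraries 1 to 8 were 2, 12, 22, 15, 36, 24, 16 and 13, and its FPKM were 260, 425, 904, 775, 1422, 1151, 570 and 834. Its SD over libraries of log2(FPKM + 1), 0.79, was the lowest of the 77 members above 0. Its exact Poisson 95% interval was 996 to 1969 FPKM in library 5, the highest, and 31.4 to 938 FPKM in library 1, the lowest.

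Psi18S-1854b, the other snoRNA seen in every library, lies in RpS5a with copies of itself named 1854a and 1854c. Its fragments in libraries 1 to 8 were 4, 5, 3, 7, 7, 7, 4 and 24, and its FPKM were 778, 265, 185, 542, 414, 503, 213 and 2308. Library 8 was the highest and the other 7 lay within 778 FPKM. Psi18S-1854a had 0, 5, 1, 1, 0, 5, 0 and 11 fragments and Psi18S-1854c had 0, 1, 9, 2, 13, 0, 6 and 5. The copies did not follow each other: 1854c was highest in library 5, where 1854a was at 0. How fragments that match several copies were shared is not given in the sources used here, so the split between them is uncertain.

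No other Psi18S guide was detected. Psi18S-1086, in the splicing factor gene Sf3b3, had 6, 7 and 26 fragments in libraries 2, 3 and 8 and was at 0 in the others. Of the 46 Psi18S genes 35 were at 0 in all libraries, among them all 11 copies of Psi18S-525 and all 5 of Psi18S-1377. The 7 copies of Psi18S-640 gave 2 fragments in all.

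Among pseudouridine guides for the large ribosomal RNA, 5 of 59 were detected and 27 were above 0 somewhere. Psi28S-3342 (FBgn0086667, X:5524302-5524465, minus strand, 164 bp) lies in no gene of the same strand. Its fragments in libraries 1 to 8 were 0, 5, 21, 8, 25, 15, 8 and 50, and its FPKM were 0, 133, 647, 310, 740, 539, 214 and 2406. Library 8 stood above the rest, with an interval of 1786 to 3172 FPKM, against 479 to 1093 in library 5, the next highest. At the depth of library 1, a floor of 3 fragments, the limit taken for a count of 0, would be 292 FPKM.

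Psi28S-2622 (FBgn0086670, 3L:1488906-1489045) had 0, 4, 3, 9, 0, 0, 7 and 5 fragments. The gene stet lies on the other strand there, and since the strand of the counting is not given, reads of the 2 genes cannot be told apart. Psi28S-3436a, in RpL17, had 0, 1, 0, 4, 0, 3, 12 and 4 fragments. Psi28S-1192c and 1192b, in RpS5a, had at most 7 and 2 fragments in a library and met the rule with exactly 4 libraries each. Psi28S-2442a, in kra, showed the other extreme, with 25 fragments in library 2 and none elsewhere.

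Methylation guides for the large ribosomal RNA made up 6 of the 9 detected members classed as C/D guides by symbol. Me28S-C3420a (FBgn0083988, 91 bp) had 0, 6, 3, 3, 12, 3, 9 and 4 fragments in libraries 1 to 8, and its FPKM ran from 0 through a median of 1595 to 4115. It was above 0 in every library but the first, where the same floor would be 3380 FPKM. Me28S-A3407a, in the noncoding host Uhg1, had 0, 3, 1, 6, 3, 7, 1 and 6 fragments and a median of 1215 FPKM.

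The 2 copies of Me28S-C3227 lie next to each other in Uhg5 and were seen in partly different libraries. C3227b had 0, 0, 2, 2, 3, 3, 3 and 2 fragments, and C3227a had 2, 1, 0, 0, 0, 4, 3 and 1. Together they left no library empty. Me28S-A1322, in the elongation factor gene eEF1alpha1, had 8 fragments over 5 libraries and never more than 2 in one. Me28S-G3253, in RpS9, had 0, 1, 0, 2, 5, 8, 1 and 0 fragments, and the noncoding gene asRNA:CR45874 lies opposite it, so that its value is uncertain.

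No methylation guide for the small ribosomal RNA was detected: 5 of 18 Me18S genes were above 0, with 8 fragments in all. Me18S-A1061, in Uhg5, had 4 of these, all in library 5, and Me18S-C1831, in RpL27A, had 1, in library 3. Me5.8S-G74, in Sf3b3, guides the 5.8S RNA and was detected on 2, 1, 1 and 1 fragments in libraries 2, 3, 4 and 8. It overlaps an exon of lncRNA:CR45184, so that its value is uncertain.

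Among orphans, Or-CD11c, in RpL28, was detected with 4, 1, 1, 1, 1 and 5 fragments in libraries 2, 4, 5, 6, 7 and 8. Its median of 2163 FPKM was the highest of any snoRNA, on 13 fragments in all. Or-CD9a overlaps an exon of Nop60B and had 1230, 1784, 1793, 0, 833, 2164 and 10802 FPKM in libraries 2 to 8, so it cannot be told apart from Nop60B messenger RNA. Or-aca5, in Uhg4, was the only one of 5 Or-aca genes above 0, with 0, 2, 5, 4, 2, 4, 0 and 3 fragments and at most 229 FPKM. Or-aca1 and the 3 remaining genes of that class were at 0 throughout.

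Of the individually named snoRNAs only U29:54Ed, in Uhg1, was detected, with 1, 3, 1 and 5 fragments in libraries 2, 5, 6 and 8. All 3 genes of U3, which is known for processing of the ribosomal RNA precursor rather than for modifying it, were listed at 0 in every library. U14:30Eb, in Uhg2, had 3 fragments in each of libraries 5 and 7. snR38:54Ec, also in Uhg1, had 2 fragments in library 2 and 6 in library 4. Me28S-G3081a, a methylation guide in the same host, had 1 and 4 fragments in libraries 4 and 5. Other members with a high single value were Me28S-G764, in Arf1, with 11, 2 and 1 fragments in libraries 2, 6 and 7, and Me28S-C788b, in Sf3b3, with 1 and 4 fragments in libraries 6 and 8.

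**Figure D3:**
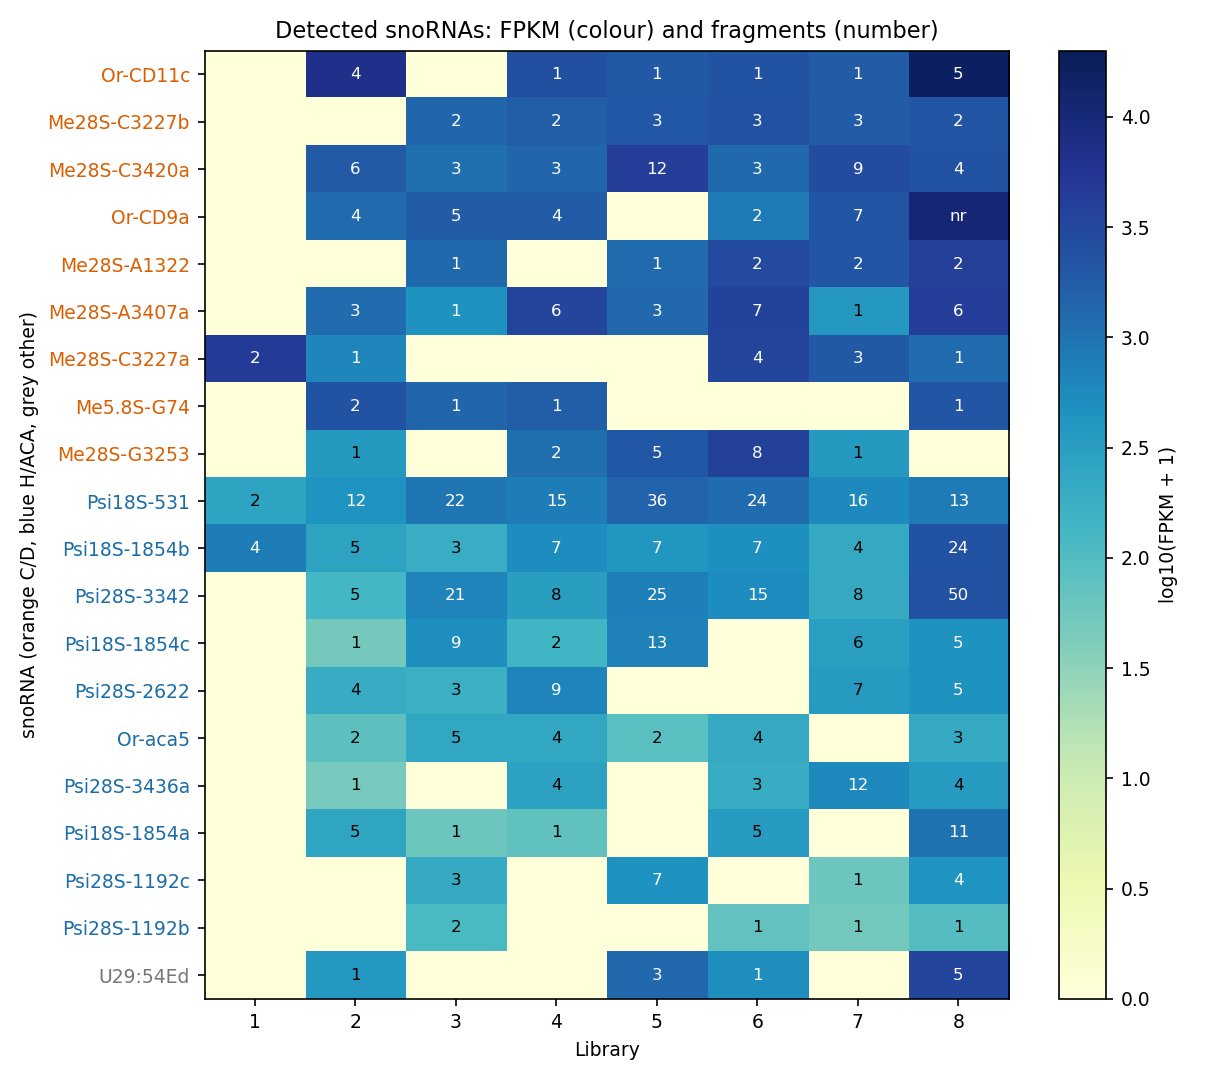
The 20 detected snoRNAs by library: colour gives log10(FPKM + 1), the number in a cell is the fragments behind it, nr marks a value whose fragments were not recovered, and names are coloured by box class. C/D guides are darker than H/ACA guides on smaller numbers of fragments, and library 1 shows only 3 of the 20.

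Copies of a guide share a target position, so the guides were also counted by site. The Me28S, Me18S, Psi28S and Psi18S genes fall on 96 positions by name, and 48 (50.0%) had at least 1 copy above 0. A site counted as detected when any of its copies reached 1 FPKM in 4 libraries, which was true of 11 sites: 5 of 31 Me28S, 0 of 15 Me18S, 4 of 32 Psi28S and 2 of 18 Psi18S. Of the 35 sites with several gene copies, 20 had a copy above 0, and in 8 of these it was a single copy. Of the 61 sites with 1 gene, 28 were above 0.

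A host on the same strand was found for 204 of the 215 snoRNAs, and 190 lie in an intron of it. Hosts numbered 57, of which 46 have values of their own. Of the 71 snoRNAs in ribosomal protein genes 31 (43.7%) were above 0 and 10 (14.1%) were detected, with 446 fragments. Of the 43 in Uhg genes 16 (37.2%) were above 0 and 5 were detected, with 132 fragments. Of the 90 in other genes 26 (28.9%) were above 0 and 3 (3.33%) were detected, with 173 fragments. The remaining 11 have no host, and 168 fragments fell on them, 132 of these on Psi28S-3342.

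Hosts differed in how many of their snoRNAs were seen. RpS7, at a median of 2354 FPKM, carries 7 snoRNAs, of which 1 was above 0. RpS16, at 1668 FPKM, carries 5, all at 0, and the RNA-binding protein gene Hrb98DE, at 115 FPKM, carries 7, all at 0. RpS5a, at 1601 FPKM, carries 14, of which 9 were above 0 and 5 detected. Hosts with a detected snoRNA had a median of 1091 FPKM (10 hosts), those with members above 0 but none detected 1171 FPKM (17 hosts), and those with every snoRNA at 0 had 115 FPKM (19 hosts, up to 4189 FPKM). Across the 159 snoRNAs whose host has a value, Spearman's rho between snoRNA and host FPKM lay between 0.014 and 0.130 within the 8 libraries. The points share libraries and hosts, and these weak values are given as a description.

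The noncoding hosts Uhg1 and Uhg5 stood low beside their detected snoRNAs on the FPKM scale. The exons of Uhg1 had a median of 1.81 FPKM, with 6 of its 16 snoRNAs above 0 and Me28S-A3407a at a median of 1215 FPKM. The exons of Uhg5 had a median of 4.38 FPKM, with 4 of 11 above 0 and Me28S-C3227b at 1754 FPKM. Since 1 fragment on Me28S-A3407a is 383 FPKM in library 2, these ratios rest mainly on the value of a single fragment. Uhg4, at a median of 45.7 FPKM, carries 7, of which 4 were above 0. Uhg2, at 21.8 FPKM, carries 4, of which 1 was above 0, and Uhg8, at a median of 0, carries 3, of which 1 was above 0. Uhg3, at 57.0 FPKM, the highest median of the 7, carries 2, both at 0 in every library.

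Among the other hosts with at least 3 snoRNAs, Sf3b3 had 3 of 9 above 0, kra 6 of 8, Nop60B 3 of 7, RpL28 2 of 5, RpL3 2 of 4, RpS4 1 of 3, RpL23A 1 of 3 and RpL17 4 of 4. CG10576 (5 snoRNAs) and pAbp (3) had none above 0. The 3 snoRNAs counted under RpL23A also lie within Uhg7, which was given none because a protein-coding host was taken first. The largest host set, 17 copies of 2 guides in Arpc2, gave 2 fragments, both of Psi18S-640f in library 4. Arpc2, Sf3b3 and kra have no value of their own among the 11773 genes.

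Some neighbours in a host were above 0 in a single library together. In RpS5a, Psi28S-1135c and Psi28S-1135d had 6 and 13 fragments in library 5 and none in any other, while Psi18S-1854b, further along the same host, was above 0 in all 8. In dom, a chromatin remodeller gene that carries 15 snoRNAs, 5 of 6 adjacent H/ACA genes within 917 bp had 1, 3, 3, 2 and 2 fragments in library 4 and none in any other library. The gene between them, Psi28S-3316d, was at 0, and the sixth dom snoRNA above 0, Psi28S-3378, was seen in libraries 5 and 6 only. The dom gene itself had a median of 7.27 FPKM.

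**Figure D4:**
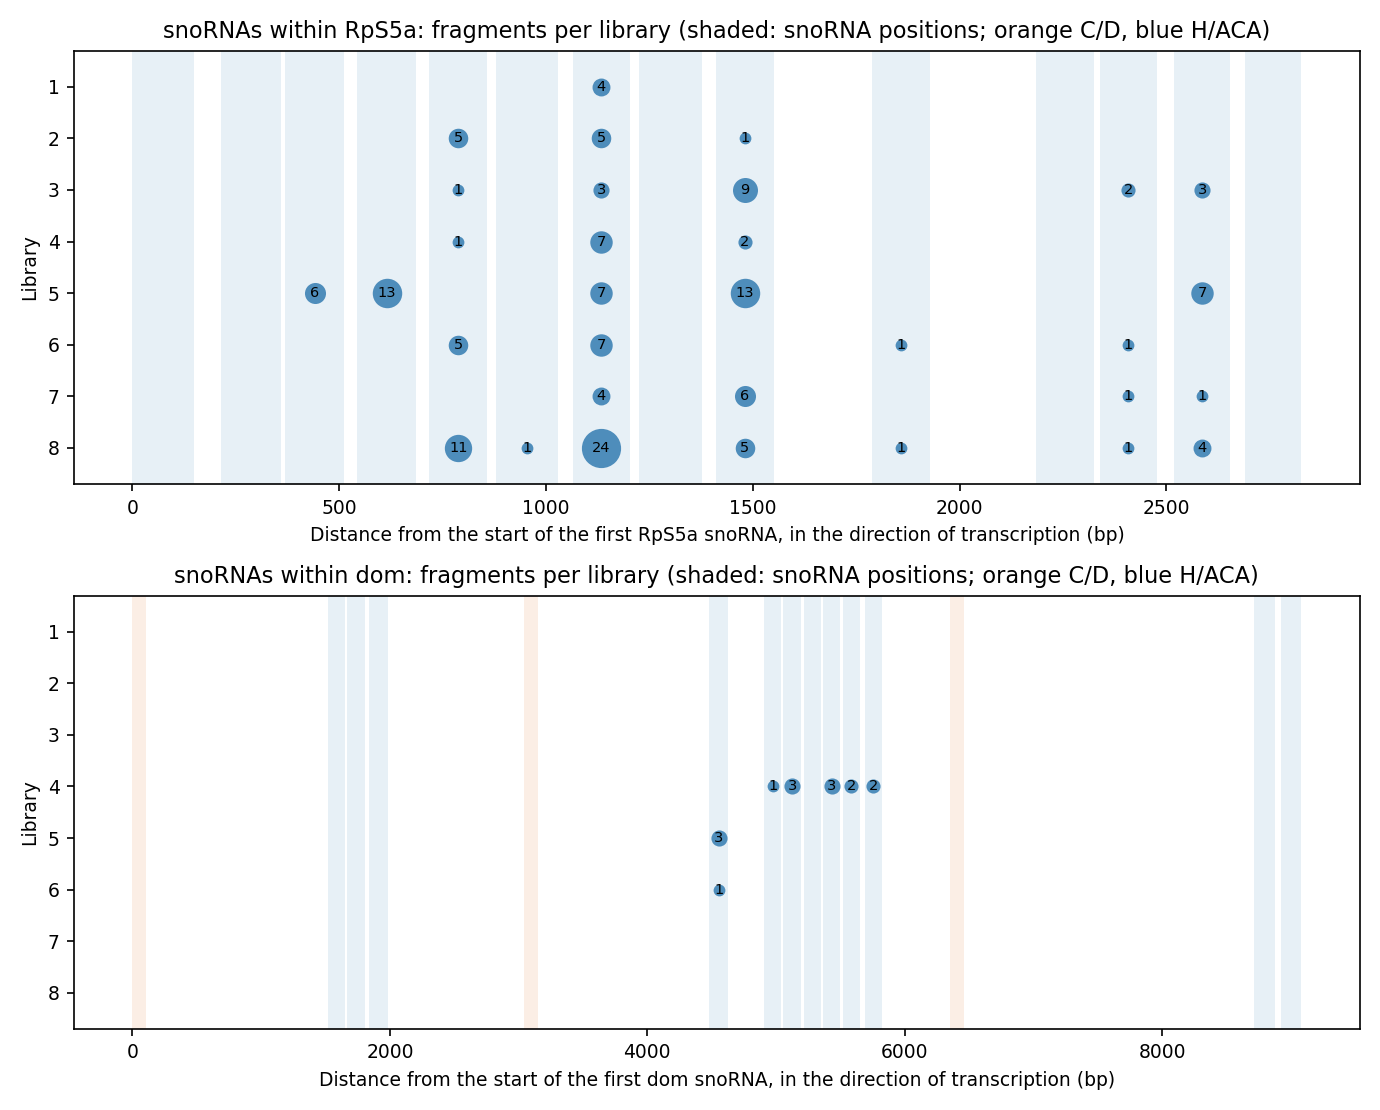
Fragments of each snoRNA in RpS5a (top) and dom (bottom) by library, against the distance in bp from the start of the first snoRNA of that host; shading marks the snoRNA genes, and the size and number of a circle give its fragments. In RpS5a Psi18S-1854b is filled in all 8 libraries, and in dom 5 neighbouring genes are filled in library 4 alone.

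Libraries differed widely in how many snoRNAs they held. From library 1 to library 8 the members at 1 FPKM or more numbered 4, 26, 17, 30, 28, 34, 24 and 32, and the fragments on them 10, 116, 90, 104, 166, 141, 97 and 195. Their share of the summed FPKM of all genes was 1.27, 3.14, 1.39, 3.20, 4.37, 4.24, 4.65 and 7.70%, with a median of 3.72%. The steps also give an estimate of depth, which rests on few genes: relative to library 2, library 1 held 27.3% of its fragments and library 8 held 55.2%. The other 5 held 68.6 to 99.5%. Library 1, the shallowest, had the fewest snoRNAs, and library 8, the next shallowest, had the most snoRNA fragments. All genes at 1 FPKM or more numbered 2518 in library 1 and 3798 in library 8, against 4094 to 5256 in the others. In a library the 3 highest snoRNAs held a median of 45.8% of snoRNA FPKM, from 30.9% in library 6 to 97.5% in library 1.

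On the scale of log2(FPKM + 1) the members varied more between libraries than genes in general. The median SD over libraries of log2(FPKM + 1) was 3.51 for the 77 snoRNAs above 0, against 1.78 for the 8235 genes above 0 and 2.73 for the 17 other short genes above 0. Among detected genes it was 4.21 for the 20 snoRNAs, 2.03 for all 4846 genes and 2.01 for 7 other short genes. Counting error was not separated from these SDs: the highest of the snoRNAs, 5.81, was that of Me5.8S-G74, with at most 2 fragments in a library. In library 2, 1 fragment on a snoRNA came to 26.6 to 1752 FPKM, so 0 against 1 fragment is a large step on this scale. The choice of pseudocount also moves these SDs, and no test of the difference was made.

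The proteins that work with snoRNAs were mostly present at low to moderate levels. Of the C/D core proteins, the methyltransferase Fib had a median of 4.88 FPKM (0 to 16.1), nop5 of 11.6 FPKM (2.48 to 70.6) and Nop56 of 25.4 FPKM (0 to 53.5); hoip was not analysed here. Of the H/ACA core proteins, Nop60B had 22.0 FPKM (8.52 to 68.7), NHP2 25.9 FPKM (0 to 61.1) and Nop10, a short gene, 491 FPKM (0 to 723), while Gar1 reached the threshold in 3 libraries and was not detected. Nop60B and nop5 were above 1 FPKM in all 8 libraries.

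Of 5 assembly factors 4 were detected: Nopp140 at a median of 12.5 FPKM, spag at 10.3, pont at 4.41 and CG10341 at 0.519, while rept was at 0 in 5 libraries. Of 6 genes for cap binding, trimming and debranching 5 were detected: La at 52.6 FPKM, Cbp20 at 31.8, Ars2 at 23.2, Cbp80 at 6.84 and Rrp6 at 1.82. The debranching enzyme gene ldbr was at 1 FPKM or more in 2 libraries. Of the 7 Uhg genes with values 6 were detected, from Uhg3 at a median of 57.0 FPKM to Uhg1, and Uhg8 was not.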

How the data were processed

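Per the labels, cDNA was amplified by a SMART-seq2-like protocol, sheared to about 250 bp and given 12 PCR cycles, and the authors deposited 1 FPKM value per gene and library, with no counts. TopHat is named in the submitters' processing notes; its version, the genome build, the annotation, the program that computed FPKM, strand use and the handling of multiply mapped reads were not given in the sources used here. Kits of this kind prime on poly(A) tails, and mature snoRNAs carry none; how far a value reports the mature RNA or a host precursor was not tested.

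Symbols came from a FlyBase name table. Coordinates, lengths and hosts came from Ensembl release 115 on BDGP6.54, in which all 215 members were found. A host is a same-strand gene that spans the snoRNA, a protein-coding one first. For 10 members more than 1 gene met this rule. Library factors were the commonest ratio of FPKM to library 2 over all genes. That ratio was shared by few genes: 12 of 2337 in library 1, where the next commonest had 8, and 24 of 3492 in library 8, where the next had 14. Of the left-out values described below, 37 of 40 were whole in library 1 and 83 of 91 in library 8. For members seen in 3 or more libraries, the largest value of which all their FPKM were whole multiples within 0.01 fragments was found first. These values set a curve of step against length. The final step of every member was then sought near that curve. It was the step that made the most of its values whole, and the nearest to the curve among equals. Members seen in fewer than 3 libraries lean on the curve most. With the step of a gene taken from the other libraries, 750 of 822 left-out values (91.2%) were whole. A step could still stand for several fragments where all values of a gene share a divisor, and the depth of a library is known only relative to library 2. The planned design took depth as unknown; steps, fragments and intervals were added after the values were seen.

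Members, gene lists and rules were chosen with earlier results of these data known. The genes named are the 10 detected members with the highest median, the 5 with the highest single value besides, the 2 highest of each class, hosts with 3 or more members and the protein lists; others were named after their values were seen. The host of 1 named member is not reported here. Python 3.11.15, NumPy 2.4.6, pandas 2.3.3, SciPy 1.17.1 and Matplotlib 3.10.9 were used. The alternatives tried were other thresholds, numbers of libraries, scalings, pseudocounts and hosts, each library left out, and counts of fragments.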

Additional observations from a re-analysis of the deposited data

Results flagged for a closer look

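In 18 of 53 quantities over the 8 libraries the highest value lay apart from the rest by Dixon's criterion. That criterion takes the gap to the next value over the whole range, at the 95% level. Chance flags about 1 in 20 groups of normally distributed values, and FPKM that is mostly 0 is not such a group. Of the 22 named snoRNAs 12 stood out. That count is no evidence of unevenness, since 5 of the 22 were named for a high single value and all 5 are among the 12, and a member at 0 in all libraries but 1 meets the criterion by construction (snoRNA:185, Me18S-A1061 and Me18S-C1831). Library 8 was the high one for Or-CD11c (15875 FPKM, next 7009), Or-CD9a (10802, next 2164), Me28S-C788b (9435, next 1762), U29:54Ed (3471, next 1281), Psi28S-3342 (2406, next 740) and Psi18S-1854b (2308, next 778). Library 5 was high for Me28S-G3081a (6384 FPKM) and Me18S-A1061 (3512 FPKM). In the remaining snoRNAs 1 other library was high: snoRNA:185 in library 7 (22610 FPKM), Me28S-G764 in library 2 (7477 FPKM), snR38:54Ec in library 4 (6392 FPKM) and Me18S-C1831 in library 3 (1262 FPKM).

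The H/ACA share of snoRNA FPKM stood apart in library 3 at 28.0%, with the next at 16.0%. Among proteins and noncoding hosts, Gar1 was high in library 5 (37.9 FPKM), Cbp20 in library 3 (423 FPKM), Uhg1 in library 6 (40.3 FPKM), and Uhg5 (180 FPKM) and Uhg7 (120 FPKM) in library 8.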

How the results depend on the processing

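The 20 detected snoRNAs (10 H/ACA, 9 C/D) numbered the same at thresholds of 0.1 and 10 FPKM. That count could not change, since the smallest snoRNA value above 0.001 FPKM was 27.8 FPKM. The 16 with a detected host became 12 at 10 FPKM. Of the 46 hosts with a value all but Uhg8 were detected, so the 16 do not show that snoRNA and host go together. With 2 of 8 libraries needed the detected snoRNAs became 40 (20 H/ACA, 16 C/D, 29 with a detected host), and with 6 needed 10 (5, 5 and 7). Asking for at least 2 fragments in 4 libraries, chosen after seeing the data, left 11, with 4 C/D. The H/ACA share of snoRNA signal, 13.0% by FPKM, was 68.6% by fragments and 55.9% by fragments per 100 bp. The median SD of log2 values, 3.51, was 4.82 with a pseudocount of 0.1 and 2.34 with 10. Leaving out each library in turn gave 16 to 20 detected snoRNAs (8 to 10 H/ACA, 8 to 9 C/D, 11 to 16 with a detected host), a snoRNA share of 3.20 to 4.24%, a share of the top 3 of 41.4 to 50.2%, an H/ACA share of 12.0 to 14.1% and an SD of 3.68 to 3.87. Of the 22 named members 8 have a median of 0, which leaving out 1 library cannot change, so it is no check for these. Leaving out 1 library moved the median of Me5.8S-G74 (689 FPKM) to between 0 and 1378, of U29:54Ed (192 FPKM) to between 0 and 383, and of Or-aca5 (150.1 FPKM) to between 87.5 and 213. No paired analysis was possible because there is 1 group. Depth limits every value: 26 of the 77 members above 0 rest on at most 2 fragments.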
